A study of Mus musculus with 2 samples.

Results

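A set of 9 genes of hepatic glucose output and the fasting response was followed in mouse liver: G6pc, Pck1, Tat, Fbp1, Pcx, Ppargc1a, Slc25a25, Txnip and Slc2a2. They were found by symbol, and all 9 occurred among the 33696 gene identifiers of both count tables. Single-cell RNA sequencing in droplets was applied to livers in 1 library labelled SLC22A18-/- (the knockout library) and 1 library labelled SLC22A18+/+ (the wild-type library). The labels state neither strain, age, sex, feeding state and number of animals nor the kind of allele and which exons were removed. No genotype was replicated (1 library each) and no test was run, so genotype and every other difference between the libraries cannot be told apart. The 9 genes were picked with their levels in these libraries known, and the library differences below are therefore descriptions.

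In fasting, the liver releases glucose made from glycogen and from lactate, glycerol and amino acids. Glucagon, acting through cAMP, and glucocorticoids raise the transcription of the enzymes of gluconeogenesis, and insulin lowers it. Hepatocytes near the portal vein carry more of these enzymes than hepatocytes near the central vein. Pcx (pyruvate carboxylase) makes oxaloacetate, Pck1 (cytosolic phosphoenolpyruvate carboxykinase) turns it into phosphoenolpyruvate, and Fbp1 (fructose-1,6-bisphosphatase) and G6pc (the catalytic subunit of glucose-6-phosphatase) carry out later steps, with G6pc freeing glucose. Slc2a2 (GLUT2) is the glucose transporter of the hepatocyte membrane. Tat (tyrosine aminotransferase) breaks down tyrosine and is a classical glucocorticoid target. Ppargc1a (PGC-1alpha) is a transcriptional coactivator induced in fasting, Slc25a25 is a mitochondrial ATP-magnesium/phosphate carrier, and Txnip binds thioredoxin, limits glucose uptake and is a target of glucose-sensing transcription factors.

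Counted RNA molecules (unique molecular identifiers, UMIs) totalled 103478998 over 11741 barcodes of the knockout library. In the wild-type library 105556354 UMIs were spread over 12796 barcodes. Filtering kept 11155 knockout cells (median 5865 UMIs) and 12029 wild-type cells (median 5362 UMIs), and 35 barcodes occurred in both libraries. Hepatocytes formed 6 clusters with 3214 cells in the knockout library and 3371 cells in the wild-type library, or 28.8% and 28.0% of the cells. The 10 hepatocyte markers, among them Alb, Ttr and Hnf4a, were each higher in these cells than in all other cells of both libraries. Slc22a18 itself was at 52.5 CPM (UMIs per 1000000 UMIs of the class) in knockout hepatocytes and 57.9 CPM in wild-type hepatocytes, a ratio of 0.906 (95% interval 0.843 to 0.973). The counts did not verify the label, and a tag at the 3' end outside a deleted part would check nothing. Each direction given here compares libraries by their labels.

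G6pc, Tat and Slc25a25 were lower in the hepatocytes of the knockout library by the size rule, and the other 6 genes did not pass it. The rule asks for a CPM ratio of at least 2 in either direction, at least 50 UMIs over both libraries, an interval that excludes 1, and detection in no fewer than 5% of hepatocytes where the level is higher. It was passed in this direction by 3 of the 9 genes and by 0.149% of the 14789 genes with enough UMIs, and upward by 0 of the 9 genes and 0.291% of all. Since the genes were picked on this contrast, nothing is read from that share. Intervals are exact and cover counting error only.

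G6pc had 6165 UMIs and 227.9 CPM (222 to 234) in knockout hepatocytes, against 26053 UMIs and 923 CPM (912 to 935) in wild-type hepatocytes. The ratio was 0.247 (0.240 to 0.254), or 4.05-fold lower in the knockout library. Tat had 559 CPM (550.3 to 568) in knockout hepatocytes and 1213 CPM (1200 to 1226) in wild-type hepatocytes, a ratio of 0.461 (0.452 to 0.470). The intervals of the libraries did not overlap for either gene. With the hepatocyte clusters given the same weight, a setting added after seeing the data, Tat no longer passed the rule (log2 ratio -0.94). Slc25a25 had 117.8 CPM (113.8 to 122.0) in knockout hepatocytes and 241 CPM (235 to 247) in wild-type hepatocytes, a ratio of 0.489 (0.469 to 0.510), the value just inside the rule.

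Txnip stood just outside the rule, with 43.0 CPM (40.6 to 45.5) in knockout hepatocytes, 80.7 CPM (77.4 to 84.1) in wild-type hepatocytes and a ratio of 0.533 (0.496 to 0.572). Pck1 had 896 CPM (885 to 908) in knockout hepatocytes and 1477 CPM (1463 to 1491) in wild-type hepatocytes, at a ratio of 0.607 (0.597 to 0.617). The remaining enzymes of the pathway stood closer together. Fbp1 had 1121 CPM in knockout hepatocytes and 1255 CPM in wild-type hepatocytes, a ratio of 0.893 (0.880 to 0.907). Pcx was the one gene of the 9 with a ratio above 1, at 551 CPM in knockout hepatocytes and 457 CPM in wild-type hepatocytes (1.21, 1.18 to 1.24). The transporter Slc2a2 had 487 CPM in knockout hepatocytes and 536 CPM in wild-type hepatocytes, at a ratio of 0.909 (0.888 to 0.931). The coactivator Ppargc1a had 134.0 CPM in knockout hepatocytes and 170.5 CPM in wild-type hepatocytes, a ratio of 0.786 (0.753 to 0.821). The median log2 ratio of the 9 genes was -0.72, beside 0.04 over all genes with enough UMIs.

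**Figure D1:**
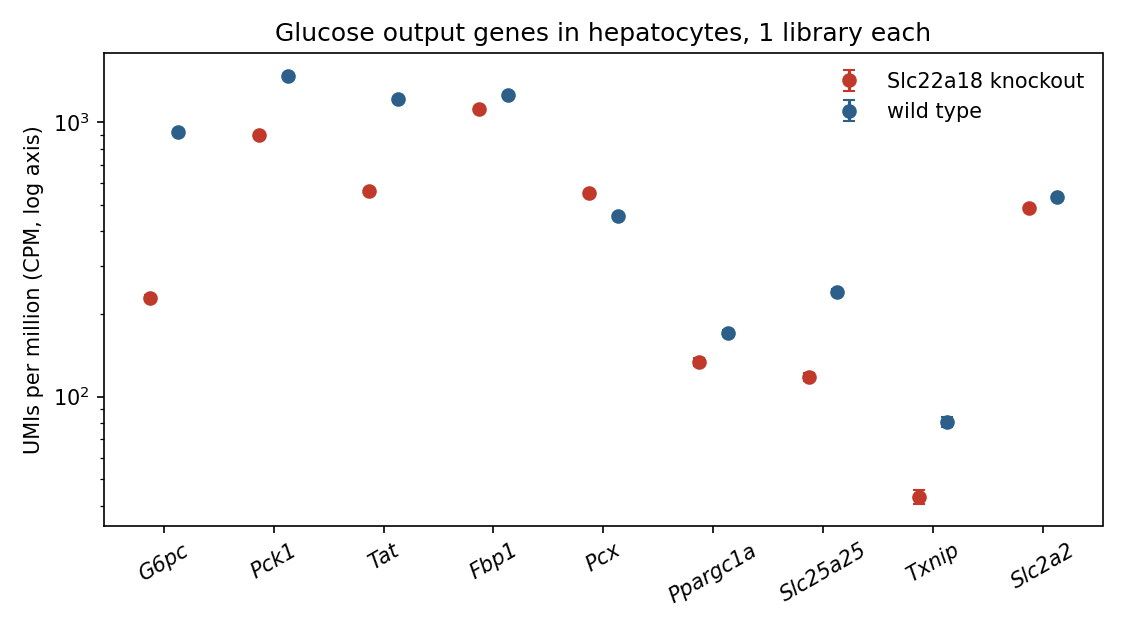
Level of each gene in hepatocytes in CPM on a log axis, in the knockout library (red, left) and the wild-type library (blue, right); points are summed counts of 1 library and bars are exact 95% Poisson intervals, mostly smaller than the points. G6pc stands at 227.9 CPM in the knockout library and 923 CPM in the wild-type library, while Pcx is the one gene that is higher in the knockout library.

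Counted per cell at a common depth, G6pc, Tat, Slc25a25, Pck1, Txnip, Fbp1 and Ppargc1a were found in a smaller share of knockout cells. For each of these genes the intervals of the libraries did not overlap. After thinning each hepatocyte to 2000 UMIs, which left out 411 knockout and 548 wild-type cells, G6pc had a UMI in 30.4% of 2803 knockout cells (28.7 to 32.1) and 67.0% of 2823 wild-type cells (65.2 to 68.7). Without thinning these shares were 50.6% and 72.1%, at median depths of 5368 and 4915 UMIs. In thinned endothelial cells, which should lack the gene, they were 1.95% in the knockout library and 4.46% in the wild-type library, with median depths of 8267 and 8660 UMIs. The thinned shares of Tat were 59.2% of knockout and 83.1% of wild-type hepatocytes, and those of Slc25a25 were 20.7% and 35.7%. Pck1 was found in 71.3% of knockout and 87.3% of wild-type hepatocytes, Txnip in 7.17% and 15.5%, and Fbp1 in 77.2% and 83.3%. The shares of Ppargc1a were 23.2% (21.7 to 24.8) in knockout cells and 26.8% (25.2 to 28.5) in wild-type cells. For Pcx they were 61.6% in knockout cells and 55.8% in wild-type cells.

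The promoters of the 3 genes past the rule and of Pck1, the rate-controlling enzyme beside them, are shown. Each window is 300 bases long, 250 before and 50 after a RefSeq start on GRCm38.p6, printed 5' to 3' on the strand of the gene, and 9 of 9 genes matched a window. Capitals mark matches, on either strand, to any of 8 motifs: TGACG (the core of the cAMP response element), GTAAACA (forkhead), CAAAACA (insulin response), TTGCNNAA (C/EBP), TGTTCT (glucocorticoid receptor core), ATTGAT (Onecut), CACGTG (E-box) and TATAAA (core promoter). The G6pc window is chr11:101367466-101367765 (plus strand), that of Tat chr8:109990186-109990485 (plus) and that of Pck1 chr2:173152823-173153122 (plus). Slc25a25 has 3 windows, and the one shown, chr2:32424017-32424316 (minus), was chosen because it holds the cAMP element.
G6pc: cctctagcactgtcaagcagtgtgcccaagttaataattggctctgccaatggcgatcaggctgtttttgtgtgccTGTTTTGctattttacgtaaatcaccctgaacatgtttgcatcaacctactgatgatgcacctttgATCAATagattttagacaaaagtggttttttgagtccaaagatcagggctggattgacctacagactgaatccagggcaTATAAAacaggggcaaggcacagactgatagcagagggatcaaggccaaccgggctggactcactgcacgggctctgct
Tat: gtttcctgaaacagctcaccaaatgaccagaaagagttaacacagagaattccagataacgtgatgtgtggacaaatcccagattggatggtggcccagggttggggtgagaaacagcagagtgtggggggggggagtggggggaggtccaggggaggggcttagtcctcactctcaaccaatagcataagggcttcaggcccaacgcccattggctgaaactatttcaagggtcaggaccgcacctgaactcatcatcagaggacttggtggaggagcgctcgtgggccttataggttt
Pck1: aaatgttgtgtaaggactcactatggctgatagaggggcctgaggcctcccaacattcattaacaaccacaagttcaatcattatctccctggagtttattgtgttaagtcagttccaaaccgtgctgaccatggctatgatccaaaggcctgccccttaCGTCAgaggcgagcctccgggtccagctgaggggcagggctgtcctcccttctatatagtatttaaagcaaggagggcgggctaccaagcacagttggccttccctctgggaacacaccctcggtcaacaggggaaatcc
Slc25a25: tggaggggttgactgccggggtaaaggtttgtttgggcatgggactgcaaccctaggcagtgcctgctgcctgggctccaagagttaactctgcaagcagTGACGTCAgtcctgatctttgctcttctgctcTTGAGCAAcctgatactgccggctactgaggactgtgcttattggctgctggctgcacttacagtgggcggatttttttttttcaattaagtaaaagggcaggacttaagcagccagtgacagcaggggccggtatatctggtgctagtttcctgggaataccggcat

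A TGACG match lay in windows of 3 of the 9 genes (Pck1, Ppargc1a and Slc25a25) and in 20.8% of 32851 windows of the same length over all genes. The 9 genes have 12 windows, so the count of genes and the share of windows are unlike measures. In Slc25a25 the matches on both strands overlap in the 8 letters TGACGTCA. The G6pc window held CAAAACA at position -174 from the start (6.28% of all windows hold it), ATTGAT at -108 (7.54%) and TATAAA at -29 (13.6%). ATTGAT was also found for Slc25a25 and Slc2a2, GTAAACA for Txnip (3.65% of windows), TTGCNNAA for Slc25a25 (10.8%) and CACGTG for Pcx (7.15%). No window of the 9 genes held TGTTCT, which 19.0% of all windows hold, and those of Tat and Fbp1 held none of the 8 motifs. A match describes letters in these windows and shows no binding.

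The genes lie on 7 chromosomes, so they are not neighbours by position apart from a shared chromosome for Pck1 with Slc25a25 and for Txnip with Slc2a2. On GRCm38, G6pc (ENSMUSG00000078650) spans 101367561 to 101377903 of chromosome 11 on the plus strand, with up to 5 exons in a transcript. Tat (ENSMUSG00000001670) spans 109990437 to 109999803 of chromosome 8 on the plus strand, with up to 12 exons. Slc25a25 (ENSMUSG00000026819) spans 32414487 to 32451445 of chromosome 2 on the minus strand. Pck1 (ENSMUSG00000027513) spans 173153048 to 173159273 of the same chromosome on the plus strand. Ppargc1a alone overlaps annotated genes on its own strand, 3 in number, of which 0 were among the counted identifiers.

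The 6 hepatocyte clusters were of 2 kinds, and the library difference was not alike in them. In 4 clusters, Malat1, a long noncoding RNA kept in the nucleus, stood at 36935 CPM in the knockout library and 39892 CPM in the wild-type library. These clusters held 2603 knockout and 2542 wild-type cells, 81.0% and 75.4% of the hepatocytes. Levels over all hepatocytes are therefore mostly those of these 4 clusters. The median mitochondrial share of all hepatocytes was 0.940% in the knockout library and 0.952% in the wild-type library. In the largest endothelial cluster it was 4.37%. How far the hepatocyte barcodes hold RNA of the whole cell was not tested. The other 2 clusters had Malat1 at 1430 CPM in the knockout library and 1498 CPM in the wild-type library, and their leading genes included Fabp1, Ttc36 and Serpina1e. These Malat1-poor cells numbered 611 in the knockout library and 829 in the wild-type library, 19.0% and 24.6% of the hepatocytes. Their median depths were 2672 and 3135 UMIs. The smaller of these 2 clusters held 14 knockout and 72 wild-type cells, and the larger held 597 and 757. The split, at 10000 CPM of Malat1, was chosen after seeing the data.

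In Malat1-rich hepatocytes the ratios of 8 of the 9 genes lay farther from 1 than over all hepatocytes, and that of Pcx lay nearer (1.15, against 1.21). G6pc had a ratio of 0.229 (0.223 to 0.236), from 258 CPM in the knockout library and 1124 CPM in the wild-type library. Tat had 0.406 (0.398 to 0.415), Slc25a25 0.461 (0.441 to 0.481), Txnip 0.504 (0.466 to 0.545) and Pck1 0.545 (0.536 to 0.555). The same 3 genes passed the rule here, where 0.228% of 14499 genes did so downward.

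In Malat1-poor hepatocytes G6pc alone of the 9 passed the rule, beside 0.341% of 9100 genes. It had 202 UMIs and 51.5 CPM (44.6 to 59.1) in the knockout library, against 729 UMIs and 128.0 CPM (118.9 to 137.6) in wild-type cells, at a ratio of 0.402 (0.342 to 0.470). Pck1 had 1191 CPM in knockout cells and 1181 CPM in wild-type cells, at a ratio of 1.01 (0.971 to 1.05). Tat had 577 CPM in knockout cells and 596 CPM in wild-type cells, a ratio of 0.967 (0.916 to 1.02). Fbp1 had 3185 CPM in knockout cells and 2427 CPM in wild-type cells, a ratio of 1.31 (1.28 to 1.34). Slc25a25 had a ratio of 0.549 (0.441 to 0.678), Txnip 0.693 (0.581 to 0.825) and Slc2a2 0.649 (0.557 to 0.755). Depth and Malat1 both differ between the 2 kinds taken whole, though not in every cluster. The shallowest Malat1-rich cluster had a median of 2521 UMIs over both libraries, beside 2728 UMIs in the larger Malat1-poor cluster. The part of depth and of Malat1 in the result was not tested.

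**Figure D2:**
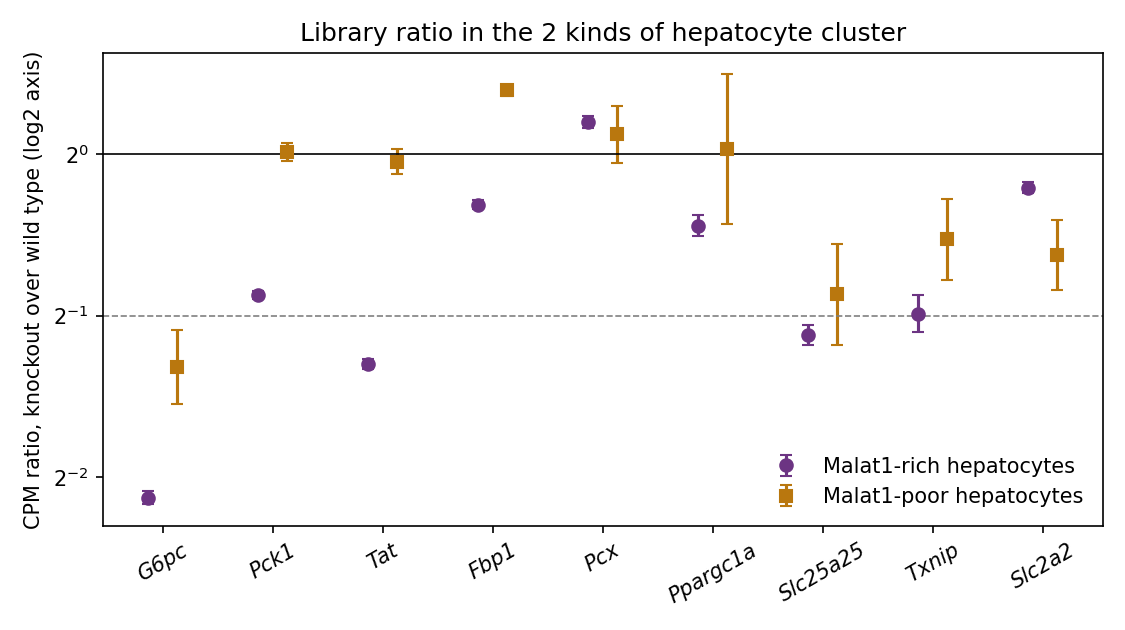
CPM ratio of the knockout over the wild-type library on a log2 axis for each gene, in Malat1-rich (purple circles) and Malat1-poor (orange squares) hepatocyte clusters, with exact 95% intervals for counting error; the solid line is 1 and the dashed line the limit of 0.5. G6pc lies below the dashed line in both, at 0.229 and 0.402, while Pck1 and Tat lie near 1 in the Malat1-poor clusters.

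Levels also differed between the kinds of cluster within a library. G6pc stood at 258 CPM in Malat1-rich and 51.5 CPM in Malat1-poor cells of the knockout library, and at 1124 and 128.0 CPM in the wild-type library. Slc2a2 stood at 559 and 63.7 CPM in the knockout library and at 646 and 98.1 CPM in the wild-type library. Fbp1 had the opposite order, with 770.3 CPM in Malat1-rich and 3185 CPM in Malat1-poor cells of the knockout library, and 958 and 2427 CPM in the wild-type library. Over the 5 clusters with at least 100 cells in each library, the whole interval lay below 1 in 5 of 5 for G6pc (0.163 to 0.423), Tat (0.326 to 0.929), Slc25a25 (0.383 to 0.654), Txnip (0.379 to 0.670) and Slc2a2 (0.714 to 0.902). For Pck1 it did so in 4 of 5 (0.410 to 0.976). Fbp1 lay below 1 in 4 clusters and above 1 in the other (0.802 to 1.22), and Ppargc1a below 1 in 4, with an interval that held 1 in the other (0.659 to 1.24). For Pcx the interval lay above 1 in 5 of 5 (1.11 to 1.25).

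Along the axis from central to portal vein, G6pc, Pck1, Tat and Fbp1 had more CPM on the portal side in both libraries, with periportal over pericentral ratios farther above 1 in the knockout library. The axis is a score of 16 periportal minus 17 pericentral genes, none of them among the 9, cut into 3 zones of equal cell number over both libraries together. It was checked on genes outside it: the urea cycle enzyme Arg1 was 2.42 times as high in the periportal as in the pericentral zone in the knockout library and 2.05 times in the wild-type library, and the bile acid enzyme Cyp7a1 stood at 0.152 and 0.138. Of 6585 hepatocytes, 19.1% lay within 0.1 score units of a limit between zones. The periportal genes of the score include Hal, Gls2, Sds and Uroc1, which also belong to the list of amino acid breakdown. A strict score left out these and some other genes. Under it G6pc, Pck1 and Fbp1 still passed the size rule by zone in the knockout library, and Tat did not.

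In the knockout library G6pc had 145.0, 211.7 and 366 CPM in the pericentral, middle and periportal zones. In the wild-type library it had 714, 952 and 1121 CPM. The periportal over pericentral ratio was 2.53 (2.37 to 2.69) in the knockout library and 1.57 (1.52 to 1.62) in the wild-type library. Pck1 had 511, 887 and 1455 CPM in the knockout library, against 1124, 1529 and 1806 CPM in the wild-type library. Its ratios were 2.85 (2.75 to 2.94) and 1.61 (1.57 to 1.65). Tat had 384, 581 and 781 CPM in the knockout library, against 1013, 1322 and 1304 CPM in the wild-type library. Its wild-type level thus rose from the pericentral to the middle zone and no further. The ratios of Tat were 2.03 (1.95 to 2.12) in the knockout library and 1.29 (1.25 to 1.32) in the wild-type library. Those of Fbp1 were 2.68 (2.60 to 2.76) and 2.37 (2.30 to 2.44).

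By the size rule, 4 of the 9 genes were higher in the periportal zone in the knockout library, where 2.46% of 12438 genes were, and 1 of the 9 (Fbp1) in the wild-type library, where 1.48% of 12357 genes were. The difference between the slopes was not tested. The background share differed between the libraries too. Without the Malat1-poor clusters, Fbp1 passed in neither library (1.81 in both) and G6pc, Pck1 and Tat passed in the knockout library alone, at 2.89, 2.55 and 2.09; 1.52% of 12128 genes and 1.43% of 11892 genes passed there. In the Malat1-poor clusters alone, Pck1 and Fbp1 passed in the knockout library, beside 2.5% of 5405 genes, and Pck1, Tat and Fbp1 in the wild-type library, beside 1.66% of 6624 genes. G6pc had 82 periportal and 80 pericentral UMIs there in the knockout library, a ratio of 0.827 whose interval holds 1 (0.600 to 1.14), so no direction is read from it.

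The other 5 genes did not pass the rule along the axis in either library. Pcx stood at 0.996 (0.956 to 1.04) in the knockout library and 0.989 (0.946 to 1.03) in the wild-type library. Slc2a2 stood at 1.05 and 1.13, and Ppargc1a at 1.11 and 1.29. Slc25a25 had a ratio of 1.17 (1.07 to 1.28) in the knockout library and 0.931 (0.876 to 0.989) in the wild-type library. Txnip had 0.881 (0.762 to 1.02) in the knockout library, where the interval holds 1, and 1.52 (1.37 to 1.69) in the wild-type library.

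Read by zone, the library ratio of the portal-side genes was nearest to 1 in the periportal zone. In the pericentral, middle and periportal zones it was 0.203, 0.222 and 0.327 for G6pc, 0.454, 0.580 and 0.805 for Pck1, and 0.379, 0.439 and 0.599 for Tat. Txnip had the opposite order, at 0.723, 0.496 and 0.418. Median depths were 6185, 5287 and 4890 UMIs over the 3 zones in the knockout library and 4964, 4761 and 5038 UMIs in the wild-type library, and their part in the result was not tested.

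**Figure D3:**
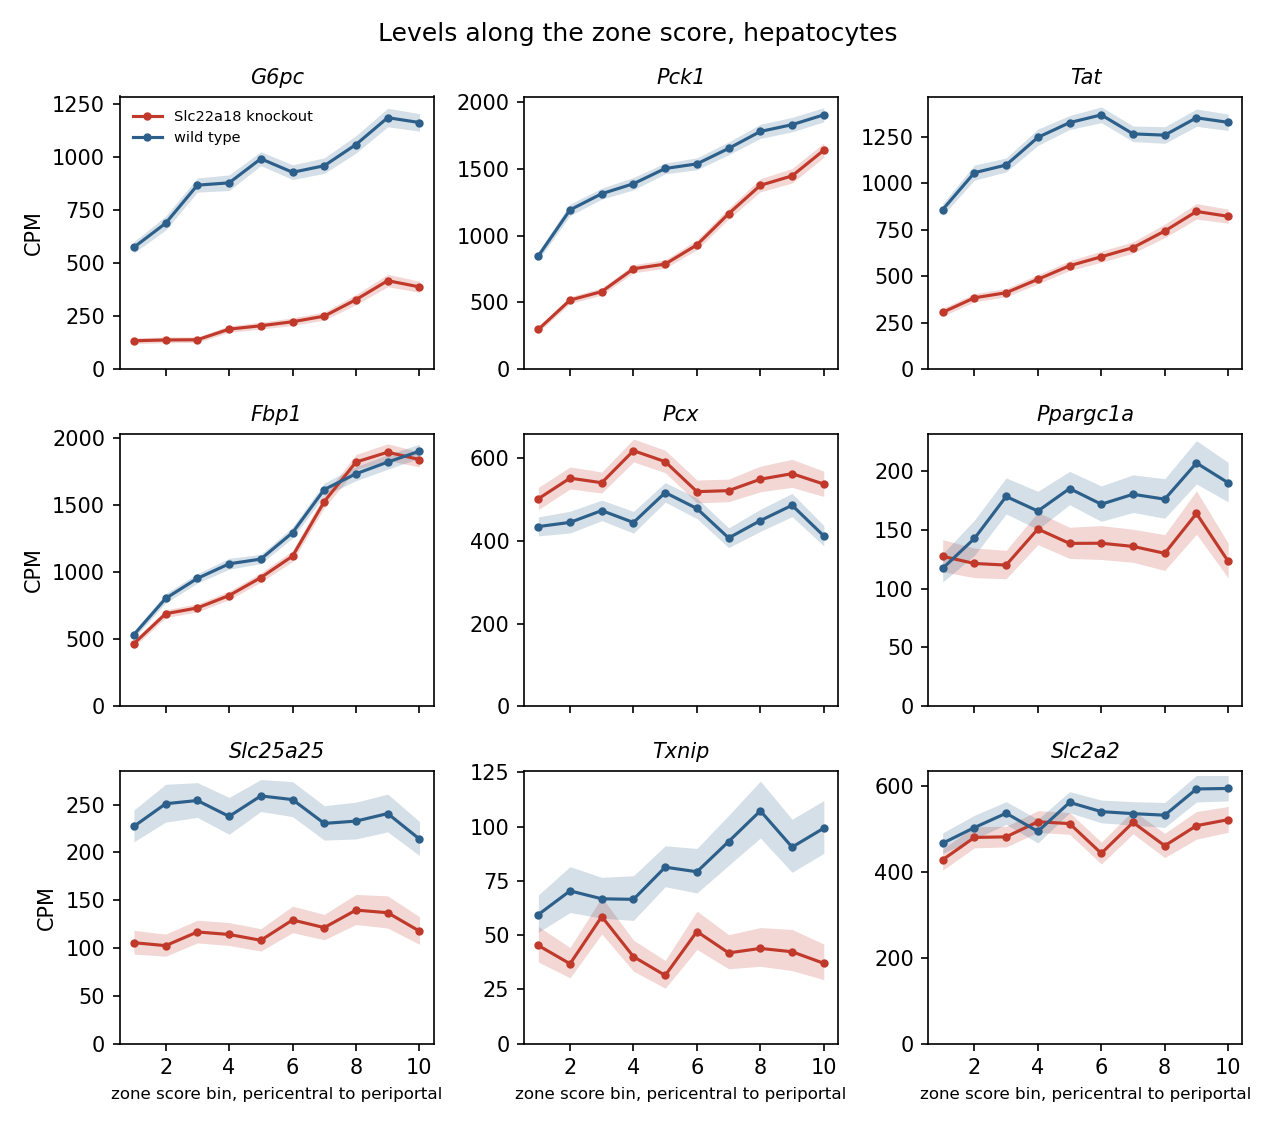
CPM of each gene in 10 bins of the zone score, from pericentral (left) to periportal (right), in the knockout library (red) and the wild-type library (blue); shading is the exact 95% Poisson interval and axes start at 0. G6pc, Pck1 and Fbp1 climb toward the portal side in both libraries, and the 2 lines of Fbp1 nearly meet. Tat climbs in the knockout library and levels off from the middle bins in the wild-type library.

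Genes with profiles most like G6pc, Tat and Pck1 were sought over 20 points, the 10 bins in each library, among 11828 genes with at least 200 UMIs. Library and zone are shared by these points, so the correlations are descriptions. For G6pc they were Tob2 (Pearson r 0.979), the kinase gene Sik1 (0.960) and Nr0b2 (0.959), the nuclear receptor SHP. For Tat they were the zinc finger gene Zbtb16 (0.964), Tob2 (0.964) and the mitochondrial carrier Slc25a47 (0.954). For Pck1 they were Slc25a47 (0.963), Ugp2 (0.946), which makes UDP-glucose, and Selenbp1 (0.944).

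Over all hepatocytes, none of the other measured enzymes of the pathway passed the rule. Of 28 measured genes of the other steps of gluconeogenesis, 0 passed the rule in either direction, with a median log2 ratio of -0.16. In Malat1-rich hepatocytes 1 of the 28 passed downward, beside 0.228% of 14499 genes. Of 21 relatives of the 9 genes, 21 genes of glycolysis and lipogenesis, 20 of insulin signalling, 19 of ketogenesis, 24 of amino acid breakdown, 19 of the clock and 8 targets of carbohydrate response elements, 0 passed. The last group, which includes Pklr (0.892) and Thrsp (0.817), had 7 of 8 ratios below 1 and a median log2 ratio of -0.31.

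Single genes of the regulatory lists did pass. Igfbp1, a secreted protein whose gene insulin represses, had 26.1 CPM in knockout hepatocytes and 81.5 CPM in wild-type hepatocytes, a ratio of 0.320 (0.294 to 0.348), the 1 of 14 FOXO targets to pass. Nr0b2 had 24.2 CPM in the knockout library and 56.2 CPM in the wild-type library (0.431, 0.393 to 0.472). Sik1, a kinase gene induced by cAMP, was at 0.495 (0.445 to 0.551), the 1 of 23 genes of glucagon and cAMP signalling. Ppp1r3c, which targets a phosphatase to glycogen, was at 0.486 (0.448 to 0.526), the 1 of 16 glycogen genes. In Malat1-poor cells, where 0.341% of 9100 genes passed downward, Sik1 did so (0.484, 0.284 to 0.794) on 22 knockout and 66 wild-type UMIs. The other 3 did not, with Igfbp1 at 0.657 (0.531 to 0.808), Nr0b2 at 0.845 (0.713 to 1.0001) and Ppp1r3c at 0.735 (0.548 to 0.979). The interval of Sik1 overlaps those of the other 3, so no difference between Sik1 and these genes is read.

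From these lists, 2 genes were higher. Onecut1 (HNF6), a hepatocyte transcription factor, had 208 CPM in knockout hepatocytes and 47.8 CPM in wild-type hepatocytes, a ratio of 4.36 (4.11 to 4.63). With Nr0b2 it was 1 of the 2 of 20 fasting transcription factors to pass. In Malat1-poor cells Onecut1 had a ratio of 0.725 (0.508 to 1.02). Mt2, a metallothionein and 1 of 16 glucocorticoid targets, had 42.1 CPM in the knockout library and 15.1 CPM in the wild-type library (2.79, 2.495 to 3.13). In Malat1-poor cells Mt2 did not pass, at 1.54 (1.26 to 1.89). In Malat1-rich cells 2 of the 16 glucocorticoid targets passed upward, Mt2 among them, beside 0.345% of 14499 genes. Early response genes, which rise when tissue is dissociated, had ratios below 1 in 14 of 14 over all hepatocytes. Their median log2 ratio was -0.40, with 0 past the rule, and Dusp1 was at 0.592 and Zfp36 at 0.604. In Malat1-rich cells 12 of 14 lay below 1 and 0 passed. In Malat1-poor cells 13 of 14 lay below 1 and 1 passed downward, beside 0.341% of 9100 genes. The part of early response genes in the result was not tested.

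Outside hepatocytes, Txnip was the one gene of the 9 above the level of free hepatocyte RNA in all 7 other classes of at least 100 cells per library. It stood at 660 CPM (649.9 to 671) in knockout endothelial cells and 721 CPM (711 to 731) in wild-type endothelial cells, against 43.0 and 80.7 CPM in hepatocytes. Stellate cells followed with 425 CPM in the knockout library and 481 CPM in the wild-type library, then B cells with 337 and 425 CPM. NK/ILC1 cells had 313 CPM in the knockout library and 309.5 CPM in the wild-type library, Kupffer cells 284 and 340.1 CPM, and T cells 258 and 313 CPM, with intervals that overlapped between several neighbours in that order. Dendritic cells were lowest of the 7, at 57.7 and 69.8 CPM. The ratio of the libraries ran between 0.793 and 1.01 in these classes, and it was 0.916 (0.896 to 0.935) in endothelial cells.

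Since Txnip is high in endothelial cells, their RNA in hepatocyte barcodes bears on its hepatocyte level. The 12 endothelial markers, with 12 of 12 detected and none at 0, summed to 488 CPM in knockout hepatocytes and 475 CPM in wild-type hepatocytes, or 2.87% and 2.80% of their level in endothelial cells. Kupffer markers stood at 1.11% and 1.04% and stellate markers at 1.01% and 1.32%. Their part in the Txnip values was not tested.

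Slc25a25 was above the level that free hepatocyte RNA gives in 3 classes of both libraries. That level was read from 14 hepatocyte genes, as the percent of their hepatocyte CPM found in each class. These are not matched to Slc25a25 or G6pc over the kinds of hepatocyte cluster. In the knockout library Fabp1, among the 14, stood at 1598 CPM in Malat1-rich and 24524 CPM in Malat1-poor hepatocytes. Slc25a25 stood there at 132.6 and 30.8 CPM, and G6pc at 258 and 51.5 CPM. For such genes the 14 give a rough reading of free RNA. Slc25a25 had 54.9 CPM in knockout endothelial cells and 59.8 CPM in wild-type endothelial cells, 54.3 and 67.0 CPM in T cells, and 53.8 and 58.2 CPM in stellate cells. The library ratios in these 3 classes were 0.917 (0.851 to 0.987), 0.809 (0.641 to 1.02) and 0.924 (0.770 to 1.11), beside 0.489 in hepatocytes. The difference was not tested. B cells had 71.1 CPM in the knockout library and 74.8 CPM in the wild-type library, and NK/ILC1 cells 58.2 and 65.8 CPM. Both exceeded all 14 genes in the knockout library only, as did conventional dendritic cells at 25.9 and 23.8 CPM. The percent is taken of each library's own hepatocyte level, which for Slc25a25 was 117.8 CPM in the knockout library and 241 CPM in the wild-type library. B cells thereby read 60.3% in the knockout library and 31.0% in the wild-type library, at similar CPM. No difference between the libraries is read from these 3 classes.

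The other 7 genes never exceeded all 14 of these probes in both libraries, and their levels are read as background. G6pc stood at 2.12% to 6.005% of its hepatocyte level in the 7 classes, with ratios between the libraries of 0.194 to 0.435, around the 0.247 of hepatocytes. Tat stood at 3.32% to 5.70%, with ratios of 0.409 to 0.593. By the size rule, members were lower in 1 case in B cells (0.217% of all genes there), 1 in Kupffer cells (0.105%), 1 in NK/ILC1 cells (0.778%), 3 in T cells (0.261%), 3 in conventional dendritic cells (1.26%), 2 in endothelial cells (0.0716%) and 3 in stellate cells (0.446%). Of these 14 cases, 13 were G6pc, Tat or Pck1, and the other was Fbp1 in dendritic cells.

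**Figure D4:**
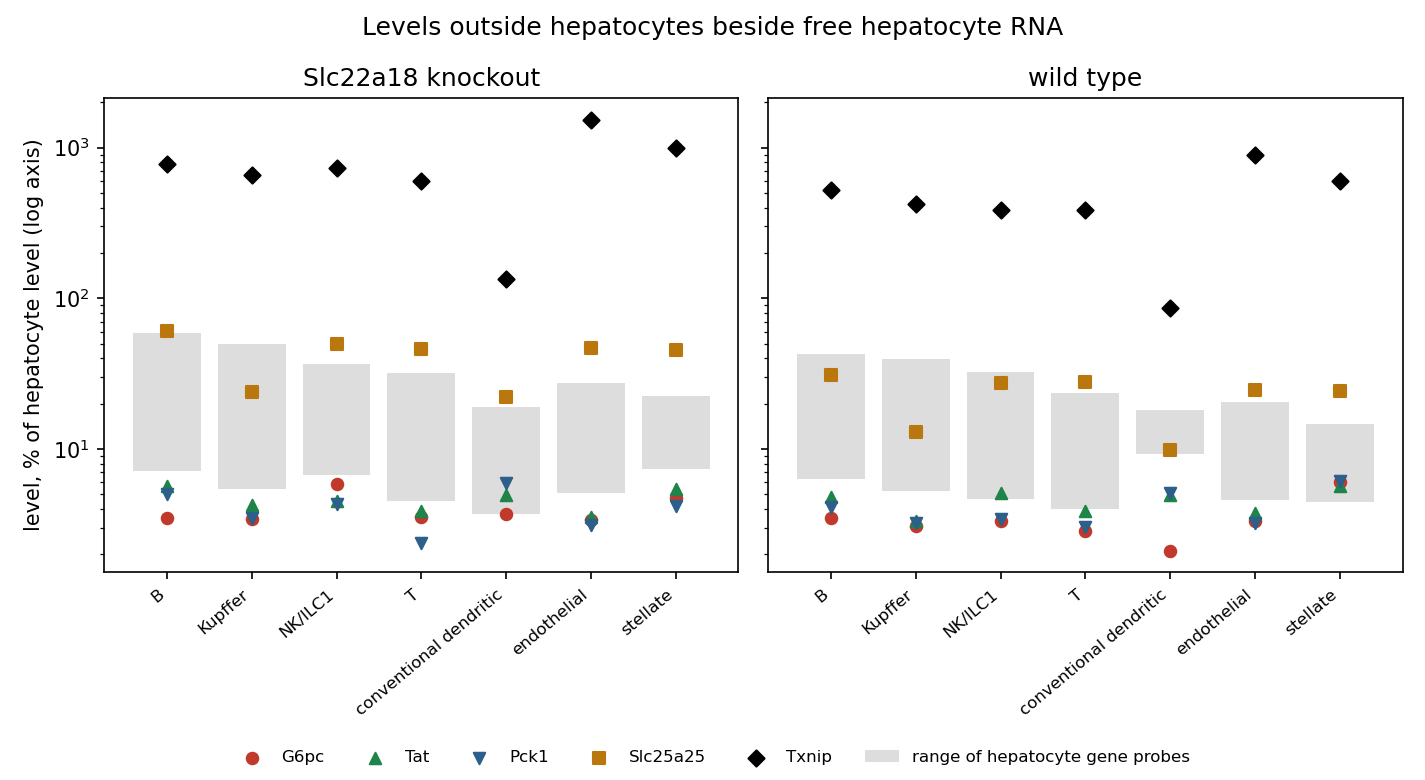
Level of 5 genes in 7 classes as a percent of the hepatocyte level of the same library, on a log axis, in the knockout library (left) and the wild-type library (right); grey bars span 14 hepatocyte genes that read free RNA. Txnip (black diamonds) lies above the bars in every class shown, while G6pc, Tat and Pck1 lie near or below their lower ends.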

How the data were processed

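Single cells of mouse liver were profiled in 2 libraries, 1 per genotype label. The deposited matrices hold counts of UMIs for each gene and barcode with no normalization. Per the file headers they were written by Cell Ranger 8.0.1, and STAR and mm10 are named too in the submitters' processing notes. The other deposited files list genes and barcodes. Positions are from GENCODE vM21 on GRCm38, which lacks 1735 of the identifiers, so the counting annotation differs from it.

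Cells with at least 500 UMIs, 300 genes and at most 20% mitochondrial UMIs were kept. Scrublet in scanpy 1.11.5 (expected rate 8%, 30 components, each library's own threshold) removed 303 knockout and 402 wild-type barcodes (2.64% and 3.23%). Both libraries were clustered together on 2000 variable genes without the 9 genes, with 15 neighbours and Leiden resolution 1. Clusters were named from marker lists; limits of naming were set after seeing the data. Free RNA was not subtracted. A result for 1 gene of the lists is not reported here.

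UMIs were summed per class and library and given as CPM with exact Poisson intervals; ratios carry exact Clopper-Pearson intervals. Log2 ratios add 0.5 to each sum. Cells are not replicates, so no p-value was computed. The size rule was tested on simulated Poisson counts around the pooled hepatocyte rates. These hold no spread between animals or libraries, so that test covers counting error only. Named genes were all 9, genes of each list past the size rule (at most 3 per direction; if none passed, the 2 with most UMIs), and the 3 most alike profiles; likeness used log2(CPM + 10). The genes and lists were chosen with earlier results of these data known. Scaling, filters, doublets, resolution, zone score and cluster mix were varied.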

Additional observations from a re-analysis of the deposited data

Results flagged for a closer look

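In Malat1-poor hepatocytes 3 genes had a library ratio on the other side of 1 than in Malat1-rich hepatocytes; none of these differences was tested. Pck1 was at 1.01 (0.971 to 1.05) in Malat1-poor and 0.545 in Malat1-rich cells, and Fbp1 at 1.31 (1.28 to 1.34) and 0.804. Ppargc1a was at 1.02 (0.740 to 1.40), from 69 knockout and 98 wild-type UMIs, and 0.735. The Malat1-poor intervals of Pck1 and Ppargc1a hold 1, so no side is read for these genes. In all 5 clusters with at least 100 cells in each library, the ratio of Pck1 was below 1 (highest 0.976).

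Along the zone score, 2 genes had ratios on opposite sides of 1 in the libraries, which was not tested. Slc25a25 had a periportal over pericentral ratio of 1.17 (1.07 to 1.28) in the knockout library and 0.931 (0.876 to 0.989) in the wild-type library. In Malat1-rich cells its wild-type ratio was 1.003 (0.943 to 1.07), an interval that holds 1. Txnip had 0.881 (0.762 to 1.02) in the knockout library and 1.52 (1.37 to 1.69) in the wild-type library. The knockout interval of Txnip holds 1, so no direction is read from it.

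Ppargc1a in NK/ILC1 cells had a ratio of 16.6 (6.08 to 63.4), opposite to hepatocytes and not tested. It rested on 48 knockout UMIs in 7 of 144 cells and 4 wild-type UMIs in 4 of 216 cells, and 1 knockout cell held 39 of the 48.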

How the results depend on the processing

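No paired analysis was possible because each genotype has 1 library. G6pc, Tat and Slc25a25 passed the size rule under all 8 other settings of filters, scaling, clustering and zones, and keeping doublet calls added Txnip. Over these the log2 ratio of G6pc ran between -2.07 and -1.94. The median log2 ratio of the 9 genes (-0.72) became -0.75 at no more than 10% mitochondrial UMIs, -0.60 with each cell weighted equally, -0.76 with median-of-ratios scaling and -0.64 with the 3 zones weighted equally. With no minimum of UMIs or cells, 233 genes were lower and 244 higher in all, against 22 and 43. The alternatives on cluster mix were chosen after seeing the data. Without the Malat1-poor clusters the median was -0.87 and 0 genes passed by zone in the wild-type library. In those clusters alone the median was -0.048, 1 of the 9 was lower, 7 genes in all were higher, and 2 genes passed by zone in the knockout library and 3 in the wild-type library. There the log2 periportal over pericentral ratio of G6pc in the knockout library was -0.27 against 1.34, on 82 and 80 UMIs and with an interval of the ratio (0.600 to 1.14) that holds 1, so no turn in direction is shown. With clusters weighted equally the median was -0.65, Tat no longer passed, and 23 genes in all were higher. Tat also missed by zone under a strict score, and with each cell weighted equally G6pc replaced Fbp1 by zone in the wild-type library. The cause was not tested.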
